A study of Tetranychus urticae with 8 samples.

Results

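Intradiol ring-cleavage dioxygenases of the spider mite Tetranychus urticae were compared between adult females and adult males. The set comprised 9 of the 17654 gene IDs in the deposited table, chosen from a list of laterally acquired genes of this family as those numbered from tetur01 to tetur07, and not by their expression. The family assignment comes from that list. The table holds IDs alone and 0 of them occurred in the RefSeq gene table used here, so neither the assignment nor the tissue could be checked against annotated genes, and no sequences are shown.

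The mites belonged to the strain London and were raised on detached bean leaves (Phaseolus vulgaris). Females were collected at 3 days of age, in pools of about 200 whole bodies per library, and males at 1 to 2 days, in pools of about 800. There were 4 libraries of each sex, described as biological replicates. Sex, age and pool size changed together, so their parts in any difference cannot be told apart.

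Intradiol dioxygenases are iron enzymes that use molecular oxygen to open the aromatic ring of catechols between the neighbouring hydroxyl groups. They are best known from bacteria and fungi, which use them to break down aromatic compounds. Spider mites are unusual among animals in carrying a family of such genes, which were acquired by lateral transfer. Catechols and related phenolics are common defence compounds of the plants on which the mites feed, and purified enzymes of this family from spider mites can cleave such substrates.

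These 9 genes did not all differ in one direction between the sexes. In males tetur04g08620 and tetur07g05930 were 3.78-fold and 3.84-fold higher, while tetur01g00490 was 2.89-fold higher in females. Smaller differences, with males higher, were found for tetur04g00150 (1.60-fold) and tetur07g05940 (1.57-fold). For tetur06g00450, tetur06g00460 and tetur07g02040 the difference did not pass the test, and tetur07g06560 had too few reads to be tested. Levels are in scaled CPM, the reads of a gene relative to the size of its library after TMM scaling (trimmed mean of M values), so that a gene can be compared between libraries. They are not corrected for transcript length. Comparisons of reads between genes, and sums and shares over the set, thus also reflect lengths that are not known here.

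Sex differences were tested with edgeR's quasi-likelihood test over 12885 genes. A call needed a Benjamini-Hochberg adjusted p under 0.05 and, unless said otherwise, a fitted fold of 2 or more. Of the 8 members tested, 1 was higher in females, against 26.9% of all tested genes, and 2 were higher in males, against 30.5%. A further 2 passed the test at less than 2-fold, against 32.4%. In all, 5 of the 8 differed at some size, against 89.9% of tested genes. The libraries of the sexes did not overlap for these same 5, against 86.2% of tested genes. The median log2 fold change, female minus male, was -0.50 over the 8 members and -0.05 over all tested genes.

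**Figure D1:**
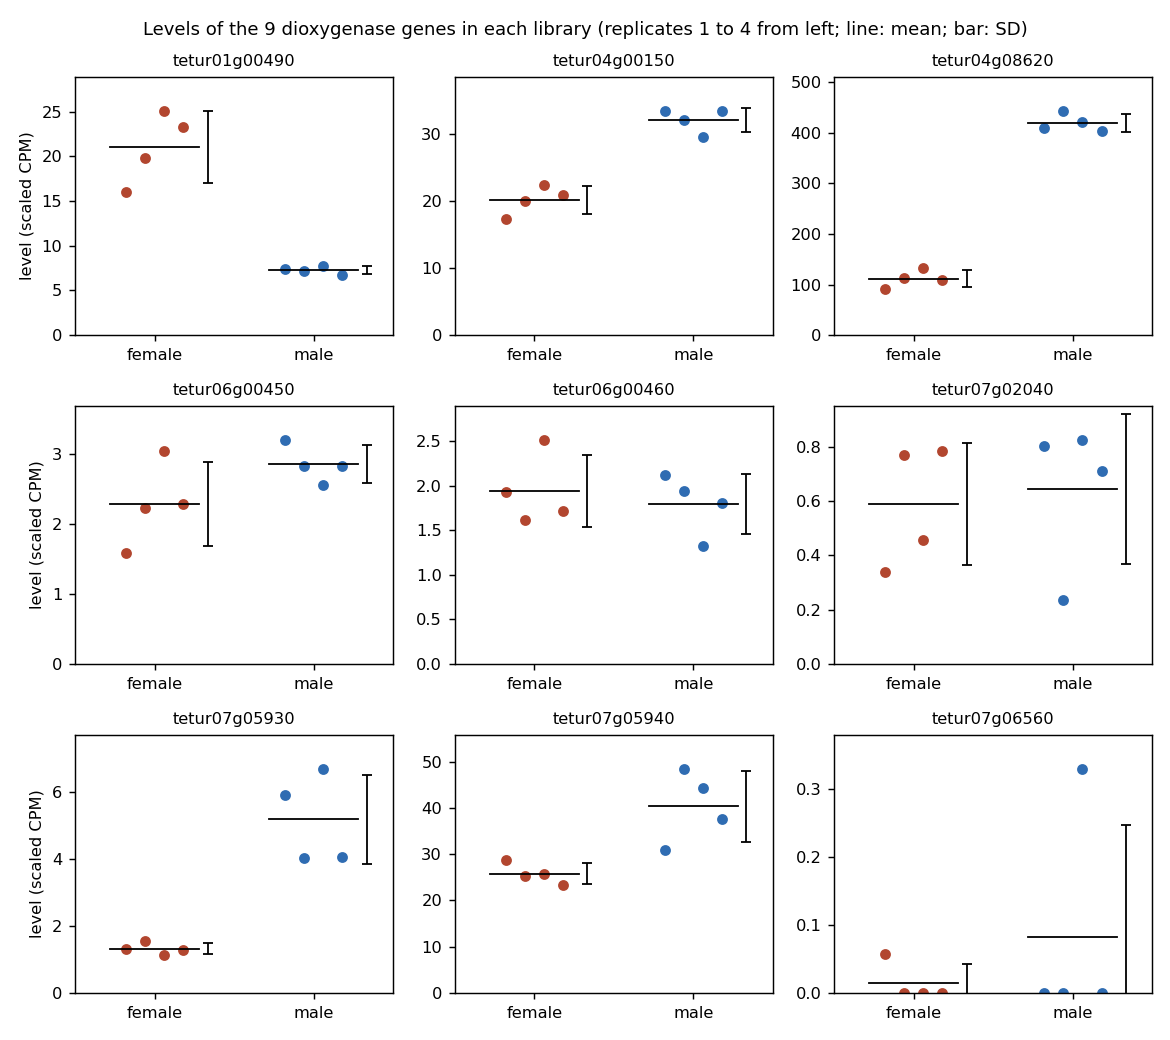
Level in scaled CPM (vertical axes, each from 0) of the 9 genes in the 4 female and 4 male libraries, with a point per library, the mean as a line and the SD as a bar. The sexes are apart for tetur01g00490, tetur04g00150, tetur04g08620, tetur07g05930 and tetur07g05940, and overlap for the other genes.

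The gene tetur04g08620 gave most of the reads of the set. Its scaled CPM was 409, 443, 421 and 403 in male replicates 1 to 4. In female replicates 1 to 4 it was 90.2, 113, 132 and 110. Every male library was therefore above every female library, by a wide margin. The means were 419 ± 17.9 in males against 111 ± 17.0 in females (SD over 4 libraries), a log2 fold change of -1.92 ± 0.090 (SE; edgeR adjusted p = 1.79e-11). Differences of this size were common in the data: 18.7% of all tested genes had a lower log2 fold change. These are levels of whole bodies, in which fewer cells of a type and less RNA per cell cannot be told apart.

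The second gene higher in males, tetur07g05930, was read far less often. It had 81, 85, 81 and 63 reads in male replicates 1 to 4, or 5.91, 4.02, 6.69 and 4.06 scaled CPM. In females it had 23, 20, 15 and 18 reads, or 1.30, 1.54, 1.14 and 1.29 scaled CPM. The lowest male library was thus well above the highest female library. The means were 5.17 ± 1.34 in males against 1.32 ± 0.16 in females (SD over 4 libraries). The log2 fold change was -1.94 ± 0.22 (SE; edgeR adjusted p = 6.36e-07), close to that of tetur04g08620 although the males varied more.

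One member, tetur01g00490, was higher in females. Its scaled CPM was 16.0, 19.8, 25.1 and 23.3 in female replicates 1 to 4 and 7.37, 7.20, 7.76 and 6.71 in male replicates 1 to 4. The male libraries lay close together and the females spread widely, but all females were above all males. Means were 21.0 ± 4.02 in females against 7.26 ± 0.44 in males (SD over 4 libraries), a log2 fold change of 1.53 ± 0.13 (SE; edgeR adjusted p = 2.97e-08). Of all tested genes, 81.2% had a lower log2 fold change.

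Differences of less than 2-fold, with higher male values, were seen for tetur04g00150 and tetur07g05940. For tetur04g00150 the scaled CPM was 33.4, 32.0, 29.6 and 33.3 in male replicates 1 to 4, and 17.3, 20.0, 22.3 and 20.9 in female replicates 1 to 4. The sexes were apart, and its log2 fold change was -0.68 ± 0.079 (SE; edgeR adjusted p = 1.01e-06). For tetur07g05940 the values were 30.9, 48.5, 44.2 and 37.6 in males and 28.8, 25.2, 25.6 and 23.4 in females. Here the lowest male library, replicate 1, came close to the highest female library, also replicate 1, and the log2 fold change was -0.65 ± 0.12 (SE; edgeR adjusted p = 8.70e-05). Against a minimum fold of 1.5 neither difference passed edgeR's glmTreat test, with adjusted p = 0.0615 for tetur04g00150 and 0.170 for tetur07g05940.

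For 3 members with low read numbers the difference did not pass the test. The gene tetur06g00450 had 44, 60, 31 and 44 reads in male replicates 1 to 4 and 28, 29, 40 and 32 in female replicates 1 to 4, with overlapping scaled CPM. Its log2 fold change of -0.34 ± 0.20 (SE) had a 95% interval of -0.77 to 0.081 (edgeR adjusted p = 0.114). This outcome rested on single choices. Without female replicate 3 it passed (log2 fold change -0.51, edgeR adjusted p = 0.0243), and without female replicate 1 it moved the other way (-0.19, edgeR adjusted p = 0.365). It also passed with upper quartile scaling (-0.55, edgeR adjusted p = 0.0178). That scaling moved the median over all tested genes from -0.05 to -0.27.

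Its neighbour in ID number, tetur06g00460, had 29, 41, 16 and 28 reads in males and 34, 21, 33 and 24 in females. The log2 fold change was 0.096 (95% interval -0.36 to 0.55; edgeR adjusted p = 0.670), and its sign turned with upper quartile scaling and without male replicate 3 or female replicate 3. The gene tetur07g02040 had 11, 5, 10 and 11 reads in males and 6, 10, 6 and 11 in females, near the limit for testing. Its log2 fold change was -0.066 (95% interval -0.96 to 0.82; edgeR adjusted p = 0.883), an interval that leaves room for nearly a 2-fold difference either way. The sign of this value also turned with limma-voom and when any of 5 single libraries was left out. Among the 2241 tested genes that averaged under 3 scaled CPM, as these 3 do, 81.1% differed at some size. That bound was chosen after the values had been seen, and it leaves out tetur07g05930, which passed the test at a level not far above it.

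The last gene, tetur07g06560, had 4 reads in male replicate 3, 1 read in female replicate 1 and none in the other 6 libraries. A count of 0 allows up to 3 reads, which is 0.142 to 0.231 scaled CPM in the 6 libraries without reads. The ratio of male to female reads after scaling was 3.70, with a 95% exact counting interval of 0.37 to 182, so no difference was detectable at this depth. Such intervals and limits cover counting error only.

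**Figure D2:**
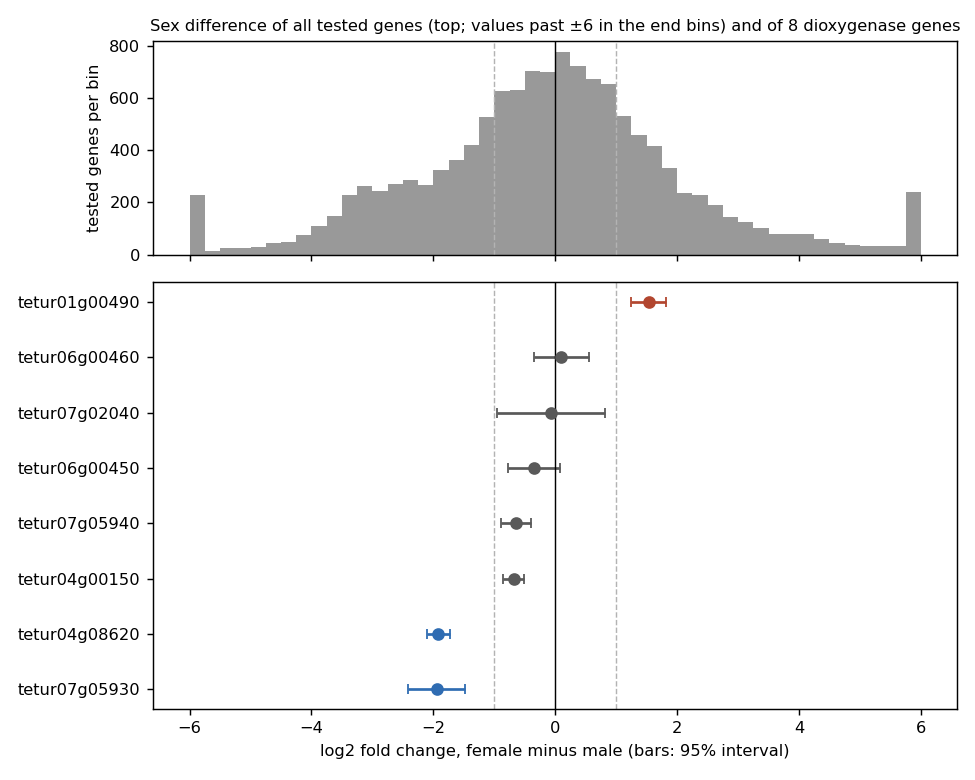
Log2 fold change, female minus male (horizontal axis), of all 12885 tested genes as a histogram (top) and of the 8 tested dioxygenase genes with 95% intervals (bottom), red where higher in females, blue where higher in males and grey where under 2-fold or not past the test. Dashed lines mark 2-fold. The genes run from -1.94 for tetur07g05930 to 1.53 for tetur01g00490, within the bulk of the histogram.

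Members whose IDs follow each other directly were compared through the ratio of their reads within each library, which does not depend on scaling. Both such pairs differed between the sexes (exact two-sided permutation test over 70 assignments, p = 0.0286 for each, also after Benjamini-Hochberg adjustment over the 2 pairs). This is the smallest p that 4 against 4 libraries can give, and it means only that the ratios of the sexes did not overlap. Of all tested genes, 86.2% did not overlap in their own level. How often the ratio separates the sexes in other pairs of consecutive IDs was not tested, so whether the result is particular to these pairs is not known. Whether the members of a pair share sequence, so that reads of one could be counted for the other, was not tested.

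In the tetur07 pair, tetur07g05930 had 0.191, 0.0830, 0.151 and 0.108 reads per read of tetur07g05940 in male replicates 1 to 4. In female replicates 1 to 4 it had 0.0454, 0.0610, 0.0446 and 0.0550. The ratio was higher in all 4 male libraries than in any female library, and it varied more among males. On the log2 scale, with 0.5 reads added to each count, it was -2.97 ± 0.53 in males against -4.26 ± 0.22 in females (SD over 4 libraries). The difference of -1.29 ± 0.29 (SE, female minus male) means that tetur07g05930 differed more between the sexes than tetur07g05940, although both were higher in males.

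In the tetur06 pair, tetur06g00450 had 1.52, 1.46, 1.94 and 1.57 reads per read of tetur06g00460 in males and 0.824, 1.38, 1.21 and 1.33 in females. The lowest male ratio lay just above the highest female ratio, and female replicate 1 was the lowest. The log2 ratio was 0.68 ± 0.17 in males against 0.22 ± 0.34 in females (SD over 4 libraries), a difference of -0.46 ± 0.19 (SE, female minus male). Without female replicate 1 the difference was -0.30, where an exact permutation test with 3 against 4 libraries cannot go below p = 0.0571. These ratios rest on 16 to 60 reads per gene and library.

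**Figure D3:**
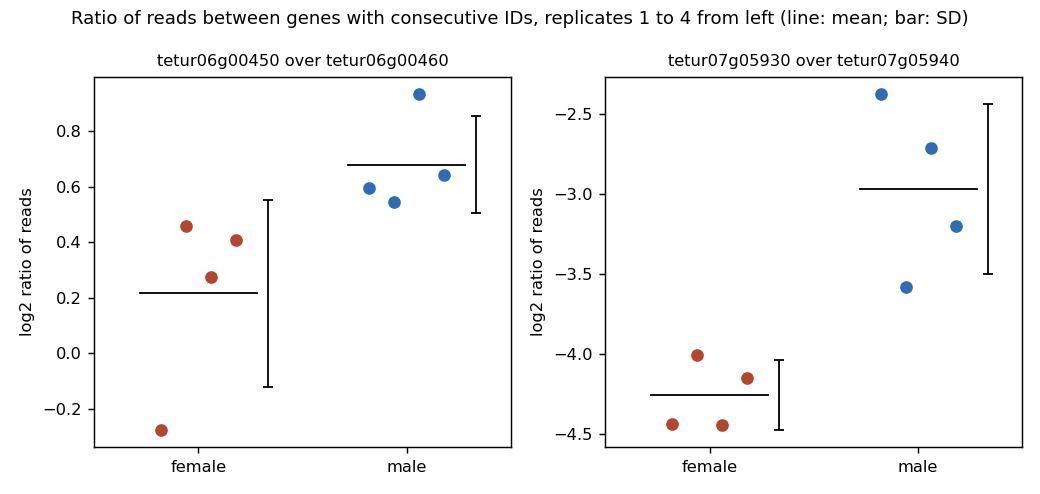
Log2 ratio of reads (vertical axes, not starting at 0) between genes with consecutive IDs in each female and male library, with the mean as a line and the SD as a bar. The male libraries lie above the female libraries in both panels, by a narrow gap for the tetur06 pair and a wider gap for the tetur07 pair.

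Summed over the 9 members, the level was 490 to 540 scaled CPM in the male libraries and 157 to 212 in the female libraries. The means were 509 ± 23.3 and 184 ± 22.3 (SD over 4 libraries each), a 2.76-fold higher sum in males that is given without a test. It came mostly from 1 gene: without tetur04g08620 the sums were 90.2 ± 5.90 in males and 73.1 ± 5.44 in females, 1.23-fold higher in males. Of the reads of the set, tetur04g08620 took 82.3% ± 0.50 in males and 60.2% ± 2.14 in females. The share of tetur01g00490 was 1.43% ± 0.09 in males and 11.4% ± 1.13 in females, and that of tetur07g05940 was 7.87% ± 1.20 and 14.2% ± 2.79. For tetur07g05940 the lower share in males stands beside a higher level there.

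Pools of one sex were not alike for every member. Among females, tetur01g00490, tetur04g00150, tetur04g08620 and tetur06g00450 were each lowest in replicate 1 and highest in replicate 3. The highest female library exceeded the lowest by 1.46-fold for tetur04g08620 and 1.57-fold for tetur01g00490. The coefficient of variation among females was 15.3% for tetur04g08620, against a median of 4.78% over the 500 tested genes nearest to it in mean level, and 19.1% for tetur01g00490, against 7.53%. Among males the same genes varied by 4.27%, against 4.84%, and by 6.02%, against 11.4%. The wide spread of these genes was thus seen in the female pools and not in the male pools.

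The genes tetur07g05930 and tetur07g05940 showed the reverse. Among males, tetur07g05940 varied by 19.1%, against a median of 5.54% for the 500 genes nearest in level, and tetur07g05930 by 25.9%, against 13.4%. Among females the values were 8.69%, against 6.98%, and 12.4%, against 22.4%. Their male pools did not follow each other throughout. In male replicate 2 tetur07g05940 was highest, while tetur07g05930 was at 4.02 scaled CPM, its lowest value but close to the 4.06 of replicate 4. In male replicate 3 both genes were above their male means, at 1.29 and 1.10 times the mean for tetur07g05930 and tetur07g05940.

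Deviations from the mean of each sex were also compared between members. Across the 8 libraries the log2 levels of tetur04g00150 and tetur06g00450 correlated at 0.95 after the sex means were removed, and those of tetur04g08620 and tetur06g00450 at 0.88. The lowest of the 28 correlations was -0.69, between tetur07g02040 and tetur07g05940, and the median was 0.10. These points share libraries and their depth, so the values are descriptive. In female replicate 1, 1 of the 8 tested members was above the female mean, and in female replicate 3, 5 were. Over all tested genes, 49.5% and 49.9% were above the mean in these libraries.

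**Figure D4:**
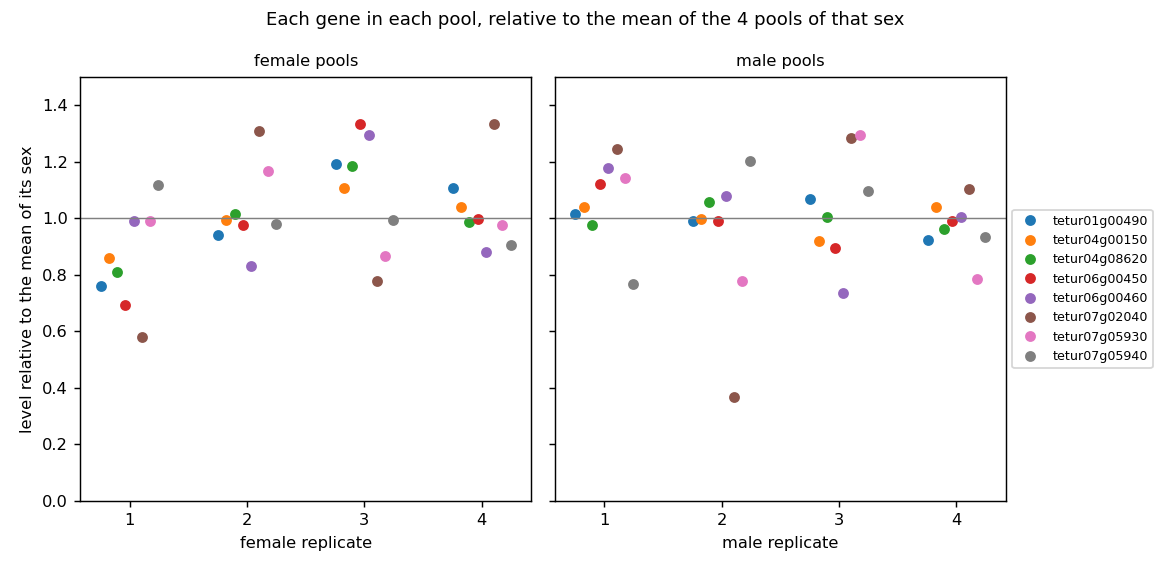
Level of each of the 8 tested genes in each pool relative to the mean of the 4 pools of the same sex (vertical axis; 1 is the mean), with females on the left and males on the right. In female replicate 1 only tetur07g05940 lies above 1, and the widest spread in males is that of tetur07g02040, which had 5 to 11 reads there.

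The genes with the nearest ID numbers were counted by direction, as 5 tested IDs on each side of each member. Of the 70 distinct IDs, 18 (25.7%) were higher in females, against 26.9% of all tested genes, and 19 (27.1%) in males, against 30.5%. A further 25 (35.7%) differed by less than 2-fold, against 32.4%, and 8 did not pass the test (edgeR, as above). These shares were close to those of all tested genes. Of the 10 IDs around tetur04g08620, 5 were higher in females and 1 in males; around tetur07g05930, 0 and 5; and around tetur01g00490, 3 and 3. The gene whose log2 level followed that of tetur04g08620 most closely over the 8 libraries was tetur11g01930, at a Pearson correlation of 0.9999 (12328 genes searched). It had 12.0 ± 0.57 scaled CPM in males against 2.71 ± 0.46 in females (SD over 4 libraries). In all, 933 genes correlated above 0.99, so this likeness is not particular to it.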

How the data were processed

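The authors deposited raw read counts, 1 column for each of 8 libraries and 1 row for each gene ID. The libraries were strand-specific and oligo dT-selected, per the labels' protocols. STAR 2.4.1d and HTSeq 0.6.1 are named in the submitters' processing notes. The sources used here do not give the genome build, gene models, strand setting or handling of multi-mapping reads, so reads of near copies or overlapping genes may be misassigned. Reads on genes ranged from 12082575 to 21414612 per library.

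Counts were fitted over the whole table with edgeR 4.0.16 in R 4.3.3 (filterByExpr, TMM scaling, quasi-likelihood F test with sex as the only term). The standard error of a log2 fold change is its size over the square root of F. Whether the replicates came from separate cultures is not stated, so p-values measure the spread between pools. Alternatives used DESeq2 1.42.0, limma 3.58.1, other scalings and filters, a replicate block and single libraries left out. Ratios were tested with SciPy 1.17.1. The main edgeR fit was checked on simulated counts, and the alternatives and the other comparisons across genes were not. In the simulation only a small part of the genes differed, equally many in each direction. In the data 89.9% of tested genes differed, so the check does not cover scaling where most genes differ. All 9 members are named. One further gene was named as the tested gene, at 1 CPM or more, best correlated with the member with most reads. The members and lists were chosen with earlier results of these data known.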

Additional observations from a re-analysis of the deposited data

Results flagged for a closer look

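Both results singled out belong to tetur07g06560. In females it stood at 0.0567 scaled CPM in replicate 1, which was 1 read, and at 0 in the other libraries. In males it stood at 0.330 scaled CPM in replicate 3, which was 4 reads, and at 0 in the other libraries. Each was singled out because the gap to the nearest library of its sex, divided by the range, was above the limit. With reads in 1 library and 0 in the others this quotient is always 1, so neither value says more than its few reads. Of 24 groups of 4 libraries examined in this way, chance would mark about 1 in 20 if the values were independent and normally distributed. The groups share libraries and counts near 0 are not normally distributed, so that rate does not hold for them. The value in females is below the 3 reads that a count of 0 allows.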

How the results depend on the processing

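Counts of members higher in females (1), higher in males (2) and differing at any size (5) stayed within 1.5 times these values in every alternative that gave them, with 1 exception: 1 member was higher in males with the filter at 5 CPM in 4 libraries. That filter leaves 4 members to test and drops tetur07g05930. The count at any size was not taken with glmTreat, which tests against a fold of 1.5. With single libraries left out the counts were 1, 2 and 5 to 6. The 5 members that passed kept their direction wherever they were tested, and of these tests only glmTreat, for tetur04g00150 and tetur07g05940, was not passed. The summed level, as a log2 ratio of females to males, was -1.47. It moved to -1.68 with upper quartile scaling and to -0.30 without tetur04g08620, an alternative chosen after seeing the data, and ranged from -1.55 to -1.40 with single libraries left out. The sign of the log2 fold change of tetur06g00460 turned to -0.11 with upper quartile scaling, and its range with single libraries left out was -0.043 to 0.17. That of tetur07g02040 turned to 0.025 with limma-voom, and its range was -0.44 to 0.15. The cause of these changes was not tested. The differences in log2 ratio between consecutive IDs ranged from -0.54 to -0.30 for the tetur06 pair and from -1.49 to -1.09 for the tetur07 pair with single libraries left out, where the exact test cannot go below p = 0.0571. The replicate numbers did not pair the libraries (correlations of deviations from -0.09 to 0.035). With the replicate block the differences were -0.46 and -1.29, at an exact p = 0.125, the smallest that sign flips of 4 pairs allow, and the counts of members called were 1, 2 and 5. Depth kept tetur07g06560, with 5 reads in all libraries together, out of every fit but that with no filter. There all 9 members were tested, and it did not pass.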
